A study of Homo sapiens with 6 samples.

Results

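Lysophospholipid acyltransferases are described here in ES2 cells with and without knockdown of UAP1. The set held 10 genes of the 58735 in the deposited gene table, matched by gene name: LCLAT1, MBOAT7, AGPAT1, AGPAT2, AGPAT3, AGPAT5, LPCAT1, LPCAT2, LPCAT3 and LPCAT4. LCLAT1 was chosen by its lower count in knockdown cells in these same libraries, so its difference is given as a description, with no test. The other 9 genes were added by family. All 10 had enough counts to be among the 15768 genes tested.

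ES2 is a human ovarian cancer cell line, for which the labels give high-grade serous carcinoma as cell type. The siUAP1 group comprised 3 libraries of ES2 cells transfected with UAP1 siRNA, whose genotype is labelled UAP1 knockdown. The control group comprised 3 libraries of ES2 cells transfected with a control siRNA, whose genotype is labelled WT. Every culture received the same lipid transfection reagent, had its medium replaced after 6 hours and was lysed for RNA at 48 hours. A single control siRNA was used, while UAP1 had 2 siRNAs that may or may not have been pooled, so the loss of UAP1 and any other action of those siRNAs cannot be told apart. Whether replicates were separate cultures is not stated, and the p-values then rest on a spread between libraries that may be technical. The libraries held between 21267240 and 25972582 counts. UAP1, the targeted gene, which encodes the enzyme that makes UDP-N-acetylglucosamine, was at 21.8, 23.3 and 25.2 CPM (counts scaled to TMM-adjusted library size) in siUAP1 libraries, against 345, 357 and 444 CPM in control libraries. Every siUAP1 library therefore carried far less of the target than any control library. Marker sums, and levels of single markers other than COL1A1, are in CPM of library totals without TMM. Keratin genes were high among epithelial markers in both groups, while MUC16 and SOX17 had 0 counts in all 6 libraries. EPCAM, CDH1 and MSLN were each at most 0.282 CPM in any library, and PAX8 and WT1 at most 2.53 CPM. The 10 epithelial and ovarian carcinoma markers summed to between 1099 and 1428 CPM in siUAP1 libraries and between 784 and 909 CPM in control libraries. KRT7, KRT8 and KRT18 held nearly all of these sums. The part of this keratin shift in the results that follow was not tested. The 9 leukocyte markers summed to between 3.39 and 3.74 CPM in siUAP1 libraries and between 1.41 and 2.74 CPM in control libraries, with CD3E, MS4A1 and ITGAM at 0. The 8 mesenchymal markers summed to between 5210 and 7433 CPM in siUAP1 libraries and between 4804 and 6442 CPM in control libraries. Compared within replicate numbers, 5 of these 8 were called higher and 2 lower by edgeR, against 9.07% and 7.14% of all tested genes. COL1A1 was at 1742, 2355 and 1361 CPM in siUAP1 libraries, against 852, 1450.1 and 773 CPM in control libraries (log2 0.85, adjusted p = 4.98e-11), and VIM fell (log2 -0.14, adjusted p = 0.0360). In the same fit, 3 of 5 tested epithelial and ovarian carcinoma markers and 1 of 2 tested leukocyte markers were called higher, and 0 lower. Of 3 tested endothelial markers, 0 were called in either direction. The part of these changes in the results that follow was not tested. The 7 endothelial markers summed to between 136 and 172 CPM in siUAP1 libraries and between 136 and 168 CPM in control libraries, with ERG at 0. Nearly all of this was CDH5, at 144, 132 and 168 CPM in siUAP1 libraries and 138, 132 and 165 CPM in control libraries. PECAM1, VWF, TEK, KDR and CLDN5 were each at most 2.87 CPM in any library. The 5 erythroid markers summed to at most 0.337 CPM in siUAP1 libraries and 0.141 CPM in control libraries, with HBA1 and HBA2 at 0.

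Membrane phospholipids carry a pair of fatty acyl chains on a glycerol backbone. Phospholipases A remove a chain and leave a lysophospholipid, and acyltransferases put a new chain back from acyl-CoA, a remodelling loop known as the Lands cycle. Acyltransferases of the AGPAT group act earlier, turning lysophosphatidic acid into phosphatidic acid, the precursor of all glycerophospholipids and of triacylglycerol. LCLAT1, also known as LYCAT or ALCAT1, was first described as an acyltransferase for lysocardiolipin and also shapes the acyl chains of phosphatidylinositol, from which the phosphoinositide signals are made. MBOAT7 adds arachidonate to lysophosphatidylinositol, and the LPCAT enzymes reacylate lysophosphatidylcholine and related lipids.

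The gene of LCLAT1 (ENSG00000172954) spans 197000 bases of chromosome 2, 30447226 to 30644225 on the plus strand of GRCh38, and GENCODE release 29 gives it 12 transcripts, of which 10 are protein-coding. Its longest coding product has 414 residues, against 472 for MBOAT7 (ENSG00000125505, chromosome 19, 54173412 to 54189882, minus strand) and 487 for LPCAT3 (ENSG00000111684, chromosome 12, 6976186 to 7018510, minus strand). The promoters of these 3 genes are shown because LCLAT1 was the gene chosen by its fall and the others are remodelling enzymes. LPCAT3 and MBOAT7 were called higher in siUAP1 cells when compared within replicate numbers, though their groups overlapped. The sequences are from RefSeq on GRCh38.p14, where 8 of the 10 genes had an entry, AGPAT5 and LPCAT2 being the others. Each runs 5′ to 3′ from 250 bases before the annotated start site to 50 bases from it, at chr2:30446996-30447295 (plus strand), chr12:7018427-7018726 (minus strand) and chr19:54189531-54189830 (minus strand). Capitals mark matches, on either strand, to a CCAAT box (CCAAT), to a GC box (GGGCGG), or to the half-site TGACG of a cyclic AMP response element. An E-box (CACGTG) and the nuclear receptor half-site (AGGTCA) were searched too and have no match in these 3 windows.
LCLAT1: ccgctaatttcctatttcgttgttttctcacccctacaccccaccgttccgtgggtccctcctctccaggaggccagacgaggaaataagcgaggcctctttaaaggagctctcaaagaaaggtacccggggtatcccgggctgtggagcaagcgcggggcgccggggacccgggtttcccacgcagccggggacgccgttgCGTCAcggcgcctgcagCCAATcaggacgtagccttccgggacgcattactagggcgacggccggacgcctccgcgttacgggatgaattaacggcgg
LPCAT3: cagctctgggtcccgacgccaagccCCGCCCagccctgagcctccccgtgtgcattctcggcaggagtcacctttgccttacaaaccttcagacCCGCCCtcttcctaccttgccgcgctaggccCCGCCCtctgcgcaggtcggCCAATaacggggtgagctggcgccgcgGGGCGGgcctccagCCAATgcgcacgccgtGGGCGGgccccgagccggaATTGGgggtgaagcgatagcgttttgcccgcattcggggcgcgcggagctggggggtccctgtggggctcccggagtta
MBOAT7: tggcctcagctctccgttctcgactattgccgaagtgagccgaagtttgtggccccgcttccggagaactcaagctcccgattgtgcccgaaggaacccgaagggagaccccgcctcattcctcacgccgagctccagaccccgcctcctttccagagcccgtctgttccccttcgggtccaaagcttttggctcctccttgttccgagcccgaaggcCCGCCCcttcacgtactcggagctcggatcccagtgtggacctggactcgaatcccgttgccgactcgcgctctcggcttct

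The LCLAT1 window held 1 cyclic AMP half-site on the minus strand, 48 bases before the start site, and 1 CCAAT box, 31 bases before it, and no GC box. The LPCAT3 window held 5 GC boxes and 3 CCAAT boxes, and the MBOAT7 window a single GC box 32 bases before the start site. None of the marked matches overlapped another. Of 35116 RefSeq promoters of the same length, 34.6% held a CCAAT box, 45% a GC box, 24.6% the cyclic AMP half-site, 13.8% the nuclear receptor half-site and 7.26% the E-box. The matches describe these letters and are not evidence of binding.

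LCLAT1 was at 7.91, 9.68 and 7.11 CPM in siUAP1 libraries, against 22.5, 24.96 and 21.4 CPM in control libraries. The highest siUAP1 library was below the lowest control library by more than the range of either group. Behind these levels lay 189, 253 and 181 counts in siUAP1 libraries and 478, 635 and 523 counts in control libraries, for which counting error alone is 7.43% of the smallest and 3.97% of the largest. The mean was 8.23 ± 1.32 CPM in siUAP1 cells and 22.96 ± 1.82 CPM in control cells (SD, n = 3 each), a log2 fold change of -1.48 within pairs or a 2.80-fold lower level. Taken within replicate numbers, LCLAT1 changed by -64.6%, -61.0% and -66.6% in siUAP1 libraries relative to control. The 3 log2 ratios had an SD of 0.112. In bulk RNA, fewer transcripts in every cell and fewer cells that carry the transcript cannot be told apart. No other gene of the table overlaps it.

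Libraries with the same replicate number deviated together from their group means, and siUAP1 was therefore compared with control both over the groups alone and within pairs. With the groups alone, edgeR's quasi-likelihood test called 5 of 15768 genes higher (0.0317%) and 12 lower (0.0761%) in siUAP1 cells at an adjusted p of 0.05, and 0 higher and 1 to 3 lower when any 1 library was left out. It called 0 of the 9 acyltransferases beside LCLAT1 in either direction, as did DESeq2 and limma on log2 FPKM. Without adjustment, edgeR's p was under 0.05 for 3 of them, at 0.00836 for LPCAT2, 0.0318 for AGPAT1 and 0.0464 for LPCAT3. The share of all tested genes with such a p was not counted, so nothing is read from this number. Within pairs, the test called 1430 genes higher (9.07%) and 1126 lower (7.14%), or 742 and 453 without replicate 3. Of the 9 acyltransferases, 3 rose within pairs (LPCAT2, LPCAT3 and MBOAT7), 1 fell (AGPAT1) and 5 did not pass the test. Their median log2 fold change within pairs was 0.00750, against -0.00295 over all tested genes. These are few genes, and nothing particular to the family is read from the counts. Groups did not overlap for LPCAT2, with siUAP1 higher (6.74% of all tested genes), or for AGPAT1 and AGPAT2, with siUAP1 lower (5.71% of all tested genes).

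**Figure D1:**
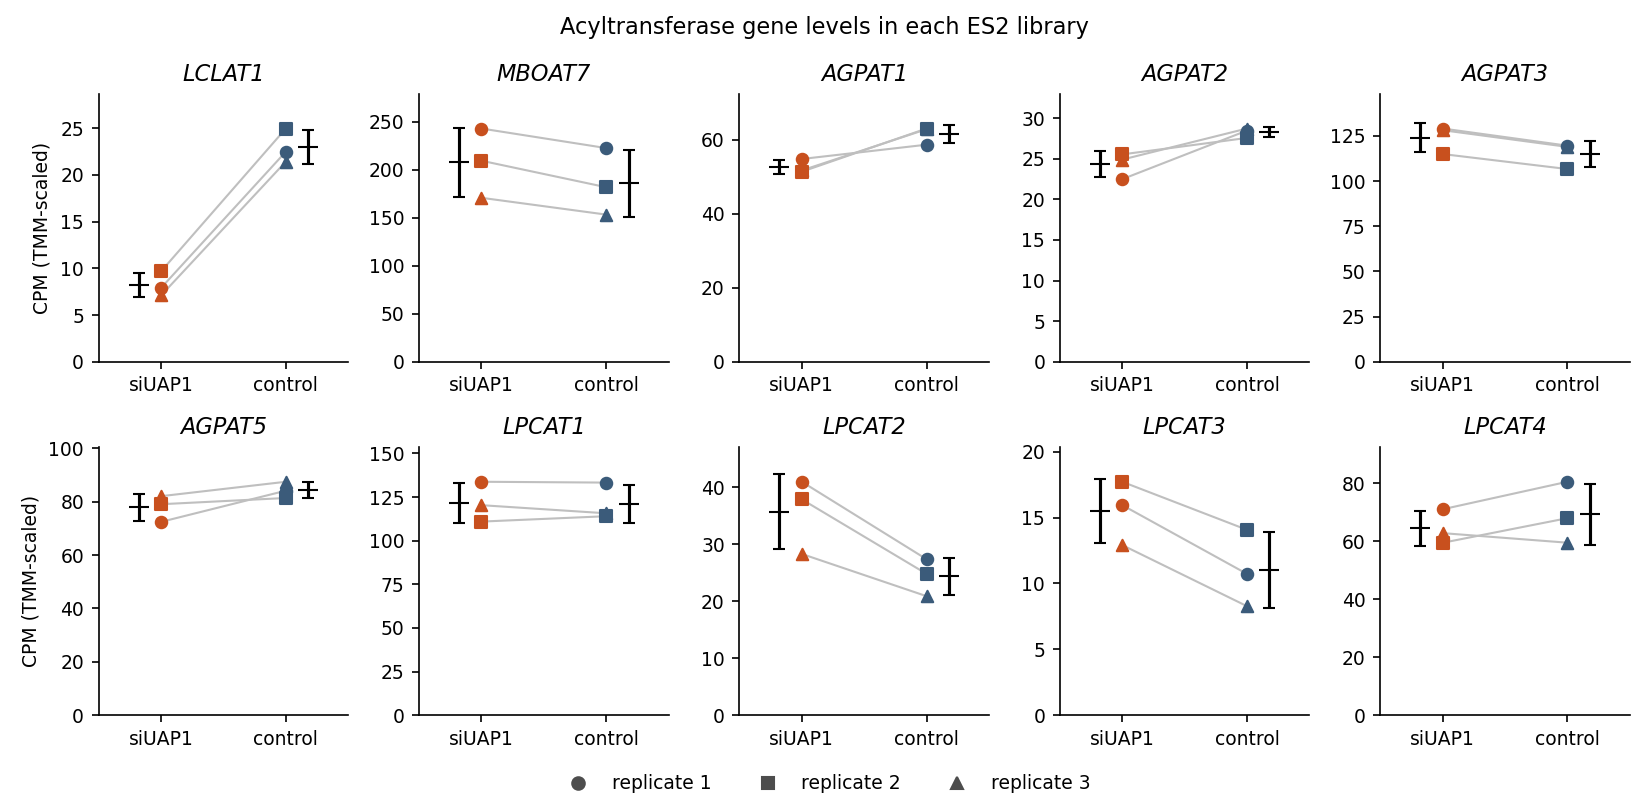
TMM-scaled CPM of each acyltransferase gene in 3 siUAP1 and 3 control ES2 libraries; marker shapes give the replicate number, grey lines join libraries with the same number, and black bars give the mean ± SD. LCLAT1 stands at 7.11 to 9.68 CPM in siUAP1 libraries, below all control libraries, while LPCAT2 and LPCAT3 are higher in siUAP1 in each of the 3 pairs.

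MBOAT7, the other enzyme of the set that acts on phosphatidylinositol, rose slightly within pairs. It was at 243, 209 and 171 CPM in siUAP1 libraries, against 223, 182 and 153 CPM in control libraries. Each siUAP1 library was above the control library of its own number, but the groups overlapped, since replicate 1 was high and replicate 3 low in both. Within pairs its log2 fold change came to 0.16 (SE 0.0463, edgeR adjusted p = 0.0166), with 0.13, 0.20 and 0.16 in the single pairs, and over the groups alone the adjusted p was 0.960. The call was lost without replicate 2 (adjusted p = 0.142) or replicate 3 (adjusted p = 0.153). MBOAT7 thus had an opposite sign to LCLAT1. Per length, the ratio of MBOAT7 to LCLAT1 in FPKM (counts relative to the length of the gene and the size of the library) was 43.6, 30.7 and 34.1 in siUAP1 libraries, against 14.1, 10.3 and 10.2 in control libraries. The change in this ratio came mostly through the LCLAT1 term, whose log2 fold change was -1.48 against 0.16 for MBOAT7.

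LPCAT2, which reacylates lysophosphatidylcholine and can make platelet-activating factor, rose within pairs. It was at 41.0, 37.9 and 28.3 CPM in siUAP1 libraries, against 27.4, 24.8 and 20.9 CPM in control libraries. The lowest siUAP1 library, replicate 3, stood just above the highest control library, replicate 1. Means were 35.7 ± 6.61 CPM in siUAP1 cells and 24.4 ± 3.27 CPM in control cells (SD, n = 3 each). Within pairs the level was 1.46-fold higher (log2 0.55, SE 0.0736, edgeR adjusted p = 6.35e-06). Single pairs gave 0.58, 0.61 and 0.44, so all 3 pairs had the same sign. Over the groups alone the same change had an adjusted p of 0.383, or 0.0290 when no genes were filtered for low counts.

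LPCAT3, which places polyunsaturated chains such as arachidonate and linoleate into phosphatidylcholine, also rose within pairs. It was at 15.9, 17.7 and 12.9 CPM in siUAP1 libraries, against 10.7, 14.1 and 8.27 CPM in control libraries. The groups overlapped, with siUAP1 replicate 3 below control replicate 2, while each siUAP1 library was above the control library of its own number. Within pairs the level was 1.42-fold higher (log2 0.51, SE 0.105, edgeR adjusted p = 0.00120), with 0.57, 0.33 and 0.64 in the single pairs. Over the groups alone the adjusted p was 0.686. The LPCAT3 gene overlaps EMG1 on the opposite strand over 21243 bases and C1S over 30252 bases. Since use of strand in the counting is not stated in the sources used here, its counts are uncertain. EMG1, a ribosome assembly factor, was at 52.2 CPM in siUAP1 and 53.4 CPM in control cells, with a paired log2 fold change of -0.04 (edgeR adjusted p = 0.742), and C1S, a complement protease, was at 1.46 and 1.05 CPM in siUAP1 and control cells.

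LPCAT1, known for the dipalmitoyl phosphatidylcholine of lung surfactant, was at 134, 111 and 120.4 CPM in siUAP1 libraries, against 133, 114 and 116 CPM in control libraries. Library by library the 2 groups lay almost on each other, and replicate 1 was highest in both. LPCAT1 had a paired log2 fold change of 0.01 (SE 0.0483, edgeR adjusted p = 0.946), the smallest in size of the 10. LPCAT4, which acylates lysophosphatidylethanolamine and lysophosphatidylcholine, was at 71.0, 59.4 and 62.8 CPM in siUAP1 libraries, against 80.5, 67.9 and 59.5 CPM in control libraries. Pairs 1 and 2 were lower in siUAP1 and pair 3 was higher, and the paired log2 fold change of -0.10 (SE 0.0589) did not pass the test (edgeR adjusted p = 0.287).

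**Figure D2:**
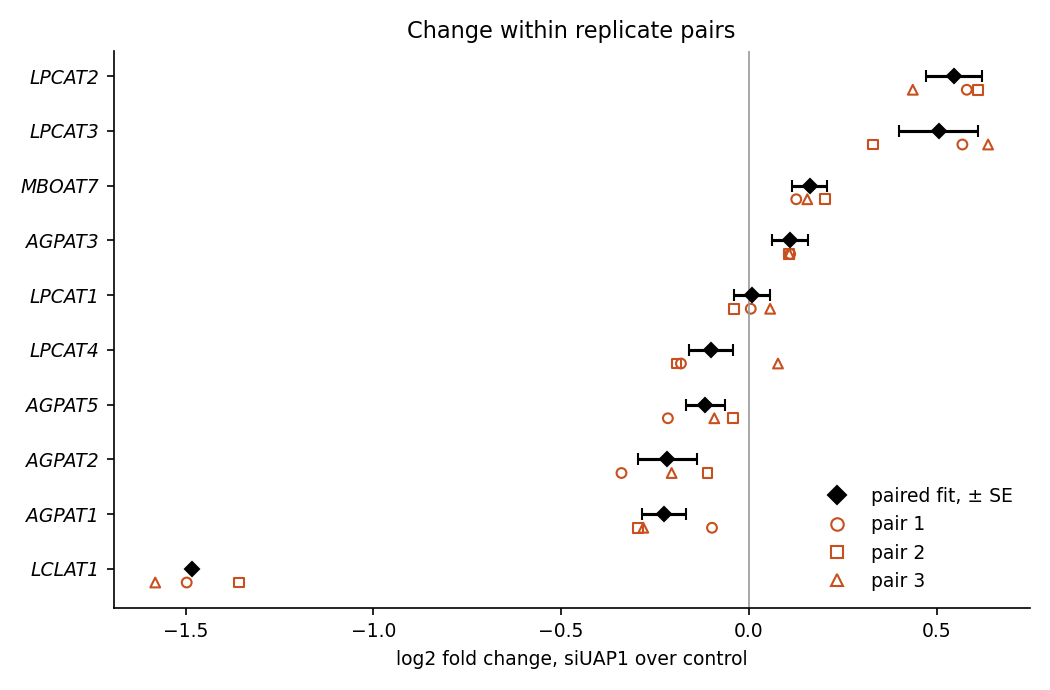
Log2 fold change, siUAP1 over control, of each acyltransferase gene. Black diamonds give the edgeR fit within replicate pairs with its SE (none is drawn for LCLAT1) and open orange markers the 3 single pairs. LCLAT1 stands at -1.48, LPCAT2 and LPCAT3 at 0.55 and 0.51, and the other 7 genes between -0.23 and 0.16.

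Of the enzymes that make phosphatidic acid, AGPAT1 fell within pairs. It was at 54.8, 51.3 and 51.7 CPM in siUAP1 libraries, against 58.6, 63.0 and 62.8 CPM in control libraries. All siUAP1 libraries were below all control libraries, and the gap was narrowest in pair 1. Within pairs the level was 1.17-fold lower (log2 -0.23, SE 0.0586, edgeR adjusted p = 0.00846), and over the groups alone the adjusted p was 0.615. The call was lost without replicate 2 (adjusted p = 0.0797), without replicate 3 (0.136) or with DESeq2 (0.0641). AGPAT1 overlaps EGFL8 and PPT2-EGFL8 on the opposite strand, which averaged 27.7 and 16.3 counts per library, against at least 1246 for AGPAT1.

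AGPAT2, the family member whose loss causes congenital generalized lipodystrophy, was at 22.5, 25.5 and 24.9 CPM in siUAP1 libraries, against 28.5, 27.6 and 28.7 CPM in control libraries. The groups did not overlap and all 3 pairs were lower in siUAP1, but the paired log2 fold change of -0.22 (SE 0.0778) did not pass the test (edgeR adjusted p = 0.0593). AGPAT3, which favours polyunsaturated acyl-CoA, was at 129, 115 and 128 CPM in siUAP1 libraries, against 119.5, 107 and 119 CPM in control libraries. Its 3 pairs gave nearly the same ratio, 0.110, 0.108 and 0.108 on the log2 scale, yet the paired fit, which shares its estimate of spread across genes, gave 0.11 (SE 0.0478, edgeR adjusted p = 0.132). AGPAT5, which is found at mitochondria and the endoplasmic reticulum, was at 72.4, 79.0 and 82.0 CPM in siUAP1 libraries, against 84.1, 81.4 and 87.5 CPM in control libraries. All 3 pairs were lower in siUAP1 by a small margin, and the paired log2 fold change of -0.12 (SE 0.0531) did not pass the test (edgeR adjusted p = 0.153).

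Levels were compared between genes per length, in FPKM. In siUAP1 cells LCLAT1 was the lowest of the 10, at 1.08 ± 0.175 FPKM, below LPCAT3 at 3.25 ± 0.511 FPKM in every library. In control cells LCLAT1 was the ninth, at 3.03 ± 0.226 FPKM, between LPCAT2 at 3.25 ± 0.432 FPKM and LPCAT3 at 2.31 ± 0.601 FPKM (SD, n = 3 each), and it overlapped both. The control level put LCLAT1 at the 43.7th percentile of tested genes in FPKM. MBOAT7 led both groups, at 38.9 ± 6.71 FPKM in siUAP1 and 34.8 ± 6.52 FPKM in control cells, with no overlap with LPCAT1, the second.

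The order of the other genes by mean FPKM was the same in both groups: LPCAT1, AGPAT5, AGPAT1, AGPAT2, LPCAT4, AGPAT3 and LPCAT2. LPCAT1 was at 18.6 ± 1.72 FPKM in siUAP1 and 18.5 ± 1.66 FPKM in control cells, and AGPAT5 at 16.5 ± 1.06 and 17.9 ± 0.716 FPKM in siUAP1 and control cells. In both groups LPCAT1 overlapped AGPAT5, and AGPAT2 overlapped LPCAT4. AGPAT1 overlapped AGPAT2 in siUAP1 cells and AGPAT5 in control cells. AGPAT3, at 10.9 ± 0.676 FPKM in siUAP1 and 10.1 ± 0.679 FPKM in control cells, stood clear of both neighbours in each group. A gap then separated it from LPCAT2, LPCAT3 and LCLAT1, the 3 genes of lowest level per length in both groups, which also had the 3 fold changes of largest size. LCLAT1 was chosen by its fall, and a link between level and size of change was not tested.

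**Figure D3:**
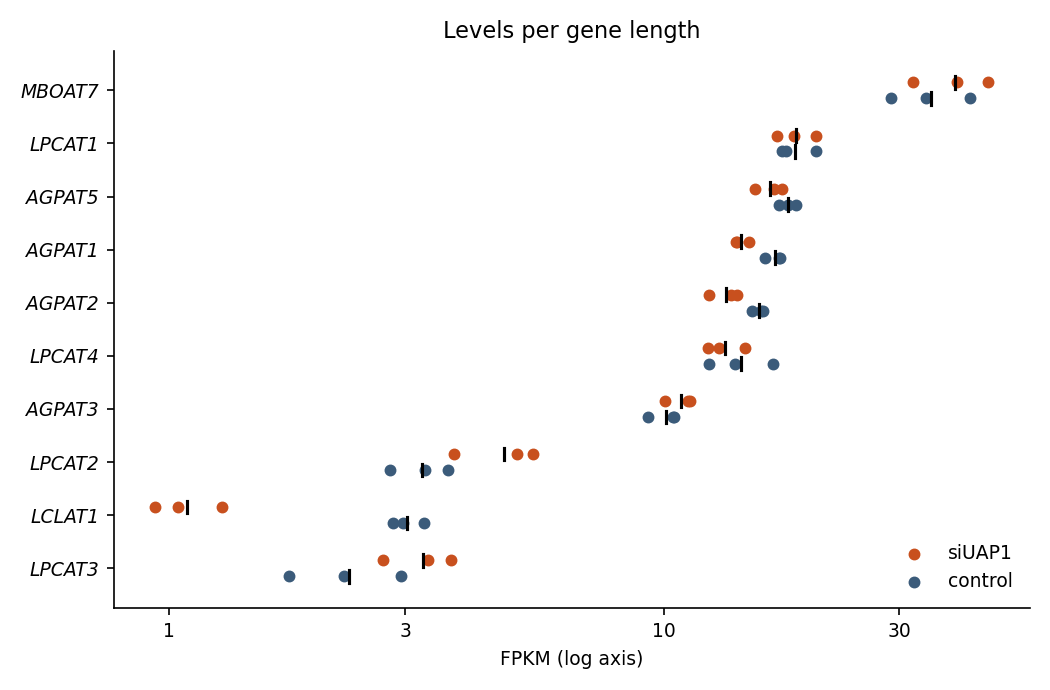
FPKM of each acyltransferase gene on a log axis, with siUAP1 libraries above control libraries. Dots are libraries and black ticks are means. MBOAT7 is highest in both groups, and LCLAT1 moves clear of all others in siUAP1 libraries, at 0.936 to 1.28 FPKM.

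Summed over the 10 genes, the level was 134.8 ± 8.56 FPKM in siUAP1 and 136.5 ± 10.1 FPKM in control cells (SD, n = 3 each). The difference between the sums was smaller than either SD. The share of LCLAT1 in this sum was 0.806 ± 0.132% in siUAP1 and 2.23 ± 0.224% in control cells. LPCAT3 exceeded LCLAT1 by a ratio of 3.21, 2.91 and 2.89 in FPKM in siUAP1 libraries, while the ratio was 0.759, 0.897 and 0.614 in control libraries. Both this ratio and the share contain LCLAT1, which was chosen by its fall, and are a description.

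Several acyltransferases also differed between replicate numbers. The choice of genes did not use this variation. In a test of the replicate number with the group in the fit, 6 of the 10 genes passed an edgeR adjusted p of 0.05, among 45.9% of all tested genes. With DESeq2's likelihood ratio test, run on the table without edgeR's filter, 5 of the 10 passed, among 4227 genes. That number equals 26.8% of the 15768 genes that edgeR tested, and the share of those DESeq2 itself tested was not counted. MBOAT7 passed with the smallest adjusted p (3.91e-07), followed by LPCAT2 (0.000570), LPCAT3 (0.00183), LPCAT4 (0.00250), LPCAT1 (0.00374) and AGPAT3 (0.0349). All 4 LPCAT genes were among them, and 1 of the 4 AGPAT genes. These are few genes beside 45.9% of all tested genes, and nothing particular to either group of names is read from this. Between the highest and the lowest replicate number, the mean log2 CPM spanned 0.61 for LPCAT3, 0.52 for MBOAT7 and 0.46 for LPCAT2. MBOAT7 and LPCAT2 were highest in replicate 1 and lowest in replicate 3 in both groups, whereas LPCAT3 was highest in replicate 2. LCLAT1 spanned 0.33 and did not pass (adjusted p = 0.0824), nor did AGPAT5 (0.289), AGPAT2 (0.747) or AGPAT1 (0.996), whose span was 0.00779. Libraries with 1 number also have a code in common in their names, which the labels do not explain.

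**Figure D4:**
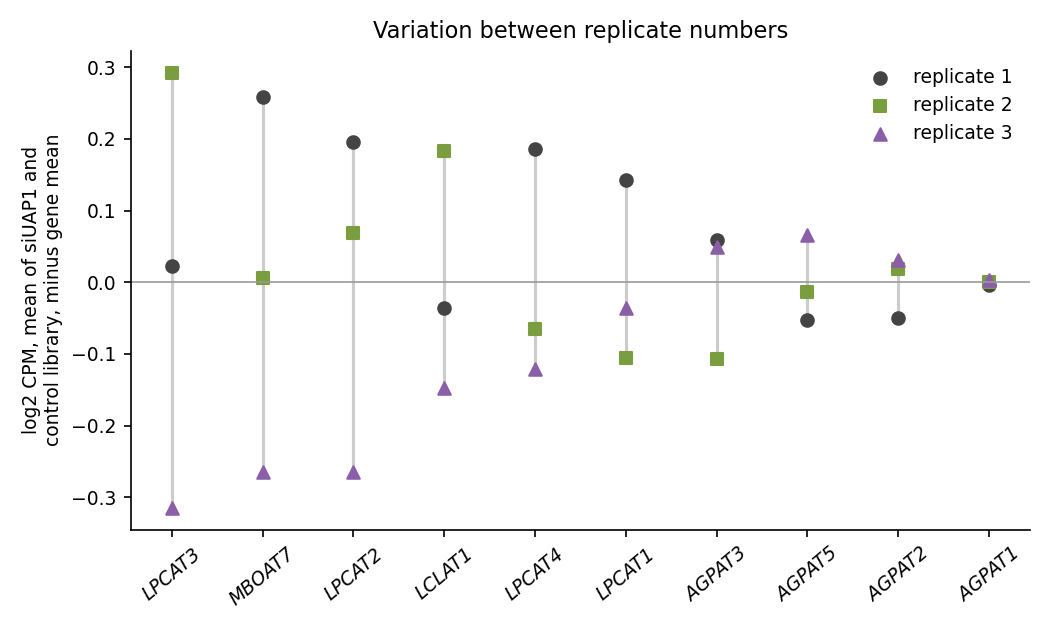
Mean log2 CPM of the siUAP1 and the control library with each replicate number, minus the mean of the gene over the 3 numbers, for each acyltransferase gene in order of its span. LPCAT3 and MBOAT7 span 0.61 and 0.52 and AGPAT1 0.00779.

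Apart from YPEL5, the genes around LCLAT1 were nearly silent. Of 14 other genes whose bodies lie within 500 kb of it on chromosome 2, YPEL5, which encodes a protein of a ubiquitin ligase complex, was the single one with enough counts to test. It ends at a distance of -286693 bases from LCLAT1, on the upstream side. YPEL5 was at 33.6, 32.4 and 37.7 CPM in siUAP1 libraries, against 31.8, 31.1 and 40.1 CPM in control libraries. The groups overlapped fully, and its paired log2 fold change came to 0.02 (SE 0.0695, edgeR adjusted p = 0.916). LBH had 3 counts in all 6 libraries together, CAPN13 had 2 and AC132154.1 had 1, and the other 10 had 0, GALNT14 among them.

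Among 10340 protein-coding genes with a mean of at least 5 CPM, 159 had a Pearson correlation above 0.9 with LCLAT1 in log2 CPM over the 6 libraries, and 52 one above 0.95. With 3 libraries per group, a gene that differs between the groups reaches such a value readily, and the libraries are not independent of the choice of LCLAT1. The closest were C5orf15 (r = 0.997), KHSRP (0.993), CLEC2B (0.991), THUMPD1 (0.991) and MAD1L1 (0.991). C5orf15 was at 36.7, 37.5 and 35.2 CPM in siUAP1 libraries, against 49.5, 51.5 and 49.0 CPM in control libraries. THUMPD1 was at 26.9, 33.7 and 26.3 CPM in siUAP1 libraries, against 52.0, 60.6 and 57.3 CPM in control libraries. In both genes, as in LCLAT1, replicate 2 was the highest library of each group. Their paired log2 fold changes were smaller than that of LCLAT1, at -0.46 for C5orf15, -0.89 for KHSRP, -0.58 for CLEC2B, -0.97 for THUMPD1 and -0.22 for MAD1L1.

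The pathways that feed on or supply these enzymes were read from 10 gene lists, counted in the paired fit beside the 9.07% of all tested genes called higher and the 7.14% called lower. Over the groups alone, edgeR called 0 of their 142 tested genes, of which 12 had an unadjusted p under 0.05. The share of all tested genes with such a p was not counted, so nothing is read from these 12. Among 13 tested genes of other glycerolipid and lysophospholipid acyltransferases, 1 rose and 1 fell within pairs, with a median log2 fold change of 0.06. DGAT2, which makes triacylglycerol, was at 87.6 ± 10.4 CPM in siUAP1 and 75.2 ± 15.8 CPM in control cells (log2 0.23, SE 0.0574, edgeR adjusted p = 0.00653, but 0.0763 without replicate 1). GPAT3, which starts glycerolipid synthesis, was at 4.56 ± 1.18 CPM in siUAP1 and 6.58 ± 1.26 CPM in control cells (log2 -0.53, SE 0.159, adjusted p = 0.0229, but 0.207 without replicate 1 and 0.0874 without replicate 3). Each count within pairs was near the background.

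Cardiolipin is the lipid of mitochondria that LCLAT1 was named for. Of 13 tested genes of its synthesis and remodelling, 1 rose and 2 fell within pairs, with a median log2 fold change of -0.06. PGS1, the committed enzyme of cardiolipin synthesis, was at 43.0, 47.4 and 46.2 CPM in siUAP1 libraries, against 58.7, 53.8 and 53.7 CPM in control libraries. The groups did not overlap (log2 -0.28, SE 0.0627, edgeR adjusted p = 0.00245). PLD6, a phospholipase D relative of the mitochondrial surface, was at 6.03, 9.07 and 8.20 CPM in siUAP1 libraries, against 10.3, 14.0 and 11.7 CPM in control libraries (log2 -0.63, SE 0.118, adjusted p = 0.000418). It too did not overlap between groups. HADHA, a fatty acid oxidation subunit with a reported acyltransferase activity towards monolysocardiolipin, was at 270.5 ± 9.71 CPM in siUAP1 and 244 ± 2.80 CPM in control cells (log2 0.15, SE 0.0463, adjusted p = 0.0295). That call was lost without replicate 2 (0.275) or replicate 3 (0.170).

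LCLAT1 and MBOAT7 also act on phosphatidylinositol. Of 21 tested genes of phosphatidylinositol synthesis and phosphoinositide kinases, 1 rose and 1 fell, with a median log2 fold change of -0.00257, and without replicate 1 the counts were 2 and 1. PIK3CD, a catalytic subunit of phosphoinositide 3-kinase, was at 69.7, 72.7 and 70.5 CPM in siUAP1 libraries, against 89.7, 95.8 and 104.8 CPM in control libraries. The siUAP1 libraries lay within a narrow range below all controls (log2 -0.45, SE 0.0541, edgeR adjusted p = 1.41e-06). PITPNM1, a phosphatidylinositol transfer protein, was at 122, 88.0 and 90.1 CPM in siUAP1 libraries, against 89.1, 68.4 and 70.0 CPM in control libraries (log2 0.39, SE 0.0511, adjusted p = 3.61e-06). Groups overlapped and each pair was higher in siUAP1.

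Of 22 tested phosphoinositide phosphatases, 5 rose and 2 fell within pairs, and the median log2 fold change was -0.04. Without replicate 2 the counts were 2 and 2, and without replicate 3 they were 3 and 0. SYNJ2, an inositol phosphatase of vesicle traffic, was at 89.5, 84.2 and 73.2 CPM in siUAP1 libraries, against 72.3, 71.6 and 55.0 CPM in control libraries (log2 0.32, SE 0.0542, edgeR adjusted p = 0.000150). Groups did not overlap, by a small margin between siUAP1 replicate 3 and control replicate 1.

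Of 12 tested genes of phosphatidylcholine, phosphatidylethanolamine and phosphatidylserine synthesis, 1 rose and 4 fell within pairs, with a median log2 fold change of -0.04. Without replicate 3, 0 rose and 0 fell, and without replicate 1 or replicate 2 the fallen genes numbered 3 and 2. PTDSS1, a phosphatidylserine synthase, was at 146, 131 and 115 CPM in siUAP1 libraries, against 157, 154 and 139 CPM in control libraries (log2 -0.21, SE 0.0493, edgeR adjusted p = 0.00421, but 0.139 without replicate 3). Each pair was lower in siUAP1, while the groups overlapped.

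The substrates of the acyltransferases come from phospholipases and acyl-CoA synthetases. Of 20 tested phospholipases A and lysophospholipases, 3 rose and 0 fell within pairs, with a median log2 fold change of 0.05, and without replicate 1 the count that rose was 1. ABHD12, a lipase of lysophosphatidylserine, was at 112, 92.4 and 111 CPM in siUAP1 libraries, against 88.9, 83.2 and 88.6 CPM in control libraries (log2 0.27, SE 0.0522, edgeR adjusted p = 0.000655). All siUAP1 libraries were above all controls. Of 13 tested acyl-CoA synthetases and acyl-CoA binding genes, 4 rose and 2 fell within pairs, with a median log2 fold change of 0.13. Medians of the log2 ratios in single pairs 1, 2 and 3 were 7.93e-05, 0.134 and -0.0125. Without replicate 2 the counts were 2 and 2, without replicate 3 they were 2 and 0, and without replicate 1 they were 4 and 1. ACSL1, which activates long-chain fatty acids, was at 31.02, 39.8 and 37.4 CPM in siUAP1 libraries, against 23.8, 29.2 and 33.7 CPM in control libraries (log2 0.32, SE 0.0743, adjusted p = 0.00311). Each pair was higher in siUAP1 and the groups overlapped.

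Phosphatidic acid, the product of the AGPAT enzymes, is used and remade by phosphatidic acid phosphatases and diacylglycerol kinases. Of 20 tested genes of that list, 3 rose and 1 fell within pairs, with a median log2 fold change of -0.02, and without replicate 1 the counts were 3 and 2. LPIN2, a phosphatidic acid phosphatase, was at 169.8, 148 and 160.1 CPM in siUAP1 libraries, against 234, 202 and 248 CPM in control libraries. All siUAP1 libraries were below all controls (log2 -0.51, SE 0.0490, edgeR adjusted p = 2.59e-08). PLD1, which releases phosphatidic acid from phosphatidylcholine, was at 20.2, 17.0 and 15.2 CPM in siUAP1 libraries, against 12.7, 11.2 and 12.4 CPM in control libraries (log2 0.52, SE 0.102, adjusted p = 0.000731). AGK, a mitochondrial acylglycerol kinase, was at 47.3, 57.3 and 60.7 CPM in siUAP1 libraries, against 34.2, 43.8 and 51.8 CPM in control libraries (log2 0.36, SE 0.0619, adjusted p = 0.000171). PLD1 did not overlap between the groups and AGK did.

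Of 5 tested genes of lysophosphatidic acid production and receptors, LPAR1, a receptor for the substrate of the AGPAT enzymes, fell within pairs (38.9 ± 6.90 CPM in siUAP1 and 48.3 ± 6.99 CPM in control cells, log2 -0.32, SE 0.0624, edgeR adjusted p = 0.000696). The other 4 did not pass, including LPAR2 (log2 0.32, adjusted p = 0.328) and LPAR3 (log2 0.14, adjusted p = 0.375). Of 7 tested genes of ether lipid synthesis, 1 rose and 1 fell. AGPS, the enzyme that makes the ether bond, was at 130.5, 135 and 134 CPM in siUAP1 libraries, against 93.8, 105 and 109.5 CPM in control libraries (log2 0.37, SE 0.0504, adjusted p = 6.86e-06). The siUAP1 libraries of AGPS lay within a narrow range above all controls. FAR2, a fatty acyl-CoA reductase, was the one that fell (log2 -0.18, SE 0.0544, adjusted p = 0.0279, but 0.141 without replicate 1 and 0.222 without replicate 3).

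**Figure D5:**
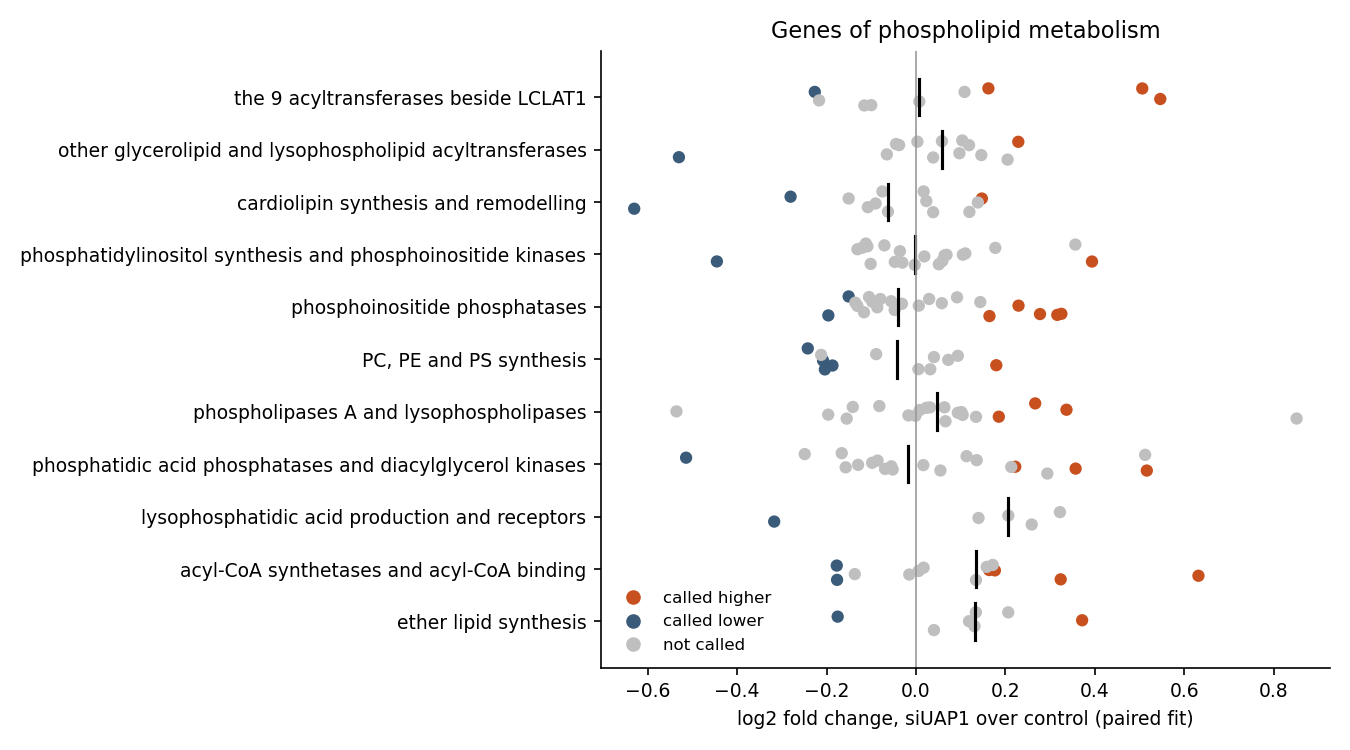
Log2 fold change within pairs, siUAP1 over control, of the tested genes of phospholipid metabolism, 1 dot per gene in rows by list, with the 9 acyltransferases beside LCLAT1 at the top; orange dots were called higher, blue dots lower and grey dots not called by edgeR at an adjusted p of 0.05, and black ticks are medians (PC, PE and PS are phosphatidylcholine, phosphatidylethanolamine and phosphatidylserine). Medians lie between -0.06 and 0.21, and most dots in every row are grey.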

How the data were processed

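RNA of 6 ES2 libraries was sequenced. The authors deposited raw counts per gene and FPKM, which imply denominators of 0.988 to 1.03 times each library's total. GRCh38.p12 and DESeq2 are named in the submitters' processing notes. Which aligner, counting tool and strand setting were used is not given in the sources used here. All 58735 genes have the start and end of GENCODE release 29. Mitochondrial transcripts took 4.23% to 6.02% of counts, and replicates differed beyond counting noise (chi-square of 23.9 to 41.3 per degree of freedom).

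From the deposited counts, edgeR 4.0.16 (R 4.3.3) was run with TMM scaling, filterByExpr (minimum count 10), the quasi-likelihood test and Benjamini-Hochberg adjustment over 15768 genes, with a threshold of 0.05, on the group alone. Groups follow the sample titles. Same-numbered libraries correlated at 0.552, 0.454 and 0.584 in their deviations from group means, and those of different numbers at -0.434 to -0.0893. The pairing comes from the titles' numbers, accepted since each correlation passed 0.1, and results of the fit with the number as a block are called within pairs. SE is the log2 fold change divided by the root of F. Single pairs and correlations use log2 CPM with a prior count of 2. Counting errors cover counting alone, while SD and SE include the spread between libraries. Alternatives were RLE scaling, totals without TMM, other filters, DESeq2 1.42.0, limma 3.58.1 on log2 of FPKM plus 1 or 0.1, where fold changes of low genes are understated, and leaving out each library or pair. The edgeR comparison of siUAP1 with control, with and without the block, was tried on simulated counts. The other statistics were not.

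The members, the gene lists and the naming rule were chosen with earlier results of these data known. The rule took all members, UAP1, up to 4 called genes of smallest p per list (with 2 uncalled ones where fewer than 2 were called), the 5 genes most correlated with LCLAT1, and tested genes within 500 kb of LCLAT1 or overlapping a member. The text names some of those it gave, and the untested neighbours of LCLAT1, MUC16 and other markers at 0 were named after their values were seen.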

Additional observations from a re-analysis of the deposited data

How the results depend on the processing

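LCLAT1 was lower in siUAP1 cells under all 14 alternatives over the groups alone (log2 -1.61 to -0.95) and all 8 within pairs (-1.55 to -1.43). It was chosen by its fall in these same libraries, so these values are a description and give no support to the fall. The value of -0.95 came from log2(FPKM + 1), whose pseudocount is near the gene's own level, and that of -1.61 from leaving out siUAP1 replicate 2. Its rank by level was the same with CPM per kilobase. LPCAT2 and LPCAT3 were called higher within pairs under all 8 alternatives, with adjusted p of at most 0.000682 and 0.0426. AGPAT1 was the acyltransferase called lower within pairs, and this count was 0 with DESeq2, and ranged from 0 to 1 when a pair was left out, as the count called higher ranged from 2 to 3.

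Over the groups alone, 5 genes were called higher and 12 lower. These counts were 182 and 91 with no filter (1 acyltransferase higher), 8 and 13 at a mean of at least 5 CPM, 96 and 70 with DESeq2, 0 and 2 with limma on log2(FPKM + 1), 0 and 3 with a pseudocount of 0.1, and 0 and 1 with no FPKM filter. With the replicate block, or pairing, they were 1430 and 1126 (3 acyltransferases higher, 1 lower). Leaving out 1 library gave 0 higher and 1 to 3 lower. Within pairs, DESeq2 called 741 higher and 563 lower, and leaving out a pair gave 742 to 1238 higher and 453 to 966 lower. For the lists, DESeq2 within pairs called 0 higher and 0 lower among other acyltransferases, 0 and 2 for cardiolipin, 2 and 0 for phosphoinositide phosphatases, 0 and 1 for phosphatidylcholine, phosphatidylethanolamine and phosphatidylserine, 1 and 0 for phospholipases A, 3 and 0 for acyl-CoA and 1 and 0 for ether lipids. Genes that differed between replicate numbers were 4227 with DESeq2 (a number equal to 26.8% of the genes edgeR tested), with 5 of the 10 acyltransferases among them. The causes of these shifts were not tested.

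Signs turned in values near 0 alone: LPCAT1 ranged from -0.0646 to 0.0816 when 1 library was left out (-0.0646 without siUAP1 replicate 1, -0.0349 and -0.0254 without control replicates 2 and 3) and from -0.0180 (without replicate 3) to 0.0299 within pairs. LPCAT4 ranged from -0.207 to 0.0141 (without control replicate 1), YPEL5 within pairs from -0.0141 and -0.00755 (without replicates 1 and 2) to 0.0701, and EMG1 within pairs from -0.0823 to 0.00627 (without replicate 1). With 181 to 253 counts in siUAP1 libraries, LCLAT1 had the fewest counts of the 10 genes in that group, which limits the precision of its level.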
